A study of Rattus norvegicus with 7 samples.

Results

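Scavenger and phagocytic receptors are the surface and endosomal proteins through which a macrophage binds and engulfs particles, lipoproteins, microbes and antibody-coated material. The 10 receptor genes described here are Marco, Msr1, Scarb1, Scarb2, Mrc1, Cd68, Cd163, Fcgr1a, Fcgr2b and Fcer1g. They were taken by gene name from the array design, with every probe that carries one of these names, which gave 12 probes of 10 genes, out of 45598 probes of 36174 gene names on the array. The transcripts were compared between NR8383 cells, a line of rat alveolar macrophages, after 4 h with zinc oxide nanoparticles (ZnO NPs, 3 arrays) and NR8383 cells left unexposed for the same 4 h (control, 4 arrays), both in medium without serum. Per the sample labels the ZnO NP dose was 2 µg/mL (0 µg/mL in controls), whereas the study's text gives a higher dose. NR8383 is 1 cell line, so the replicates are cultures of the same cells and not animals. The cells carry no added gene or deletion.

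Class A scavenger receptors (Marco, Msr1) are trimers with a collagen-like stalk that bind polyanions, bacteria and mineral particles. Class B receptors (Scarb1, Scarb2) and the sialomucin Cd68 handle lipoproteins, lysosomal cargo and endosomal ligands, Mrc1 binds mannose-bearing sugars, and Cd163 takes up haptoglobin-hemoglobin complexes. The Fc receptors Fcgr1a and Fcgr2b bind the constant part of IgG. Fcgr1a drives engulfment through the activation motif of its partner chain Fcer1g, and Fcgr2b restrains it through an inhibitory motif. In the alveolus some of these receptors are known for the clearance of inhaled particles and surfactant-coated debris.

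What the array saw of each receptor depended on its 60-base probes, of which 5 are printed because the results turn on them: those of Marco and Cd163 carry a finding of no signal, those of Mrc1 and Scarb1 cover an interval longer than the probe itself, and that of Msr1 is 1 of a pair for that gene. They are read 5′ to 3′ from the array files, with positions on rn4, all on the + strand. Capitals in the Marco probe mark 7 GGN codons that repeat every 9 bases, as in a collagen-like stretch where glycine recurs at a fixed spacing. Of all 45598 probes, 2 held a run of at least 7 such codons (0.00439%). The other probes have no marked part.
Marco (chrUn:9449917-9450079): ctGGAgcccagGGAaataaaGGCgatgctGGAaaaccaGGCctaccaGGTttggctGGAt
Msr1 (A_44_P928825, chr16:56293586-56293645): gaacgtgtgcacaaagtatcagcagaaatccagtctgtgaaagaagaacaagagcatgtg
Scarb1 (A_44_P379244, chr12:32447458-32450453): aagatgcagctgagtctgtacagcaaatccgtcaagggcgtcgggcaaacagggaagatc
Mrc1 (chr17:88489156-88491763): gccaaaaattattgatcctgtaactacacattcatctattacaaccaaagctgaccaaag
Cd163 (chr4:160423704-160423763): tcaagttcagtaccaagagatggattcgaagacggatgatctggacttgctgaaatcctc

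The Marco, Scarb1 and Mrc1 probes above cover 163, 2996 and 2608 bases of rn4, which is more than their own length, so each joins sequence from more than 1 genomic block. The remaining receptor probes lie at chr16:56309938-56309997 (Msr1, A_44_P1113884, 16.4 kb from the other Msr1 probe), chr12:32457600-32457659 (Scarb1, A_44_P1084230), chr14:17168802-17168861 (Scarb2), chr10:56481726-56481785 (Cd68), chr2:191095045-191095104 (Fcgr1a), chr13:86809091-86809150 (Fcgr2b) and chr13:87119567-87119626 (Fcer1g). Fcgr2b and Fcer1g lie 310.5 kb apart, both on the - strand. No receptor probe shared a stretch of 16 or more bases with any other probe on the array, on either strand. The Fcgr2b probe, which has close relatives in the same cluster, shared at most 5 bases in a row with the probes of Fcgr2a and Fcgr3a and 7 with that of Fcgr2al1. The same count was 7 between the Msr1 probes, which belong to the same gene. Probes were compared with probes and not with transcripts, so binding of a probe to transcripts of related genes was not tested. The exons and UTRs of rn4 were not used here.

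All arrays were printed on 1 slide and scanned once. Because ZnO arrays occupied 1 slide column and control arrays another, exposure and slide column cannot be told apart. A probe's level is its background-corrected intensity on a log2 scale on which 0 stands for the 75th percentile of the same array. For ZnO arrays this percentile was an intensity of 980 to 1603, and for control arrays 958 to 1489. Well above background were 52.9% to 54.3% of spots on ZnO arrays and 51.7% to 56.0% on control arrays, with no saturated spot. With 3 and 4 arrays, precision is limited by their number. Of 10 general macrophage markers, 9 were well above background on all arrays, and Adgre1 was on 1 of them. Of the 6 alveolar macrophage markers found on the array, Pparg, Fabp4, Siglec5 and Krt79 were measured on all arrays while Chi3l1 and Car4 were on none. None of 8 epithelial markers was measured on all arrays, against 2 of 6 lymphocyte, 2 of 5 fibroblast, 3 of 5 endothelial and 1 of 6 neutrophil markers. No marker that entered limma's test passed it for a difference between the groups. Markers too dim for the test, among them all 8 epithelial markers, Adgre1, Chi3l1 and Car4, were not compared. Genes known to respond to zinc rose after ZnO, with folds of 56.9 for Mt2A (adjusted p = 3.79e-06), 10.6 for Mt1a (adjusted p = 3.67e-05) and 2.59 for Slc30a1 (adjusted p = 0.00276 from limma).

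No receptor transcript passed the test for a change after ZnO NPs. Of the 10 receptor probes tested, which stand for 8 of the 10 genes, 0 passed limma's test at an adjusted p under 0.05 and 0 had an unadjusted p under 0.05. Across all 20037 probes tested, 10 were called (0.0499%), all of them higher after ZnO in this fit, and 5.92% had an unadjusted p under 0.05. The log2 fold changes of the receptor probes ran from -0.19 (Mrc1) to 0.12 (Fcer1g), with 4 above 0 and 6 below. Their median was -0.01, as was that of all probes (-0.01), of which the central 90% lay between -0.26 and 0.26. None reached a 1.5-fold difference, as 1.06% of all probes did. For 9 of the 10 probes the 95% interval, taken singly, lay within a 1.5-fold change in either direction, and Mrc1 was the exception. In bulk RNA, fewer cells with a transcript and less of it per cell cannot be told apart. An interval of this kind bounds the size of a change, and a p above the threshold does not show that the levels were equal.

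**Figure D1:**
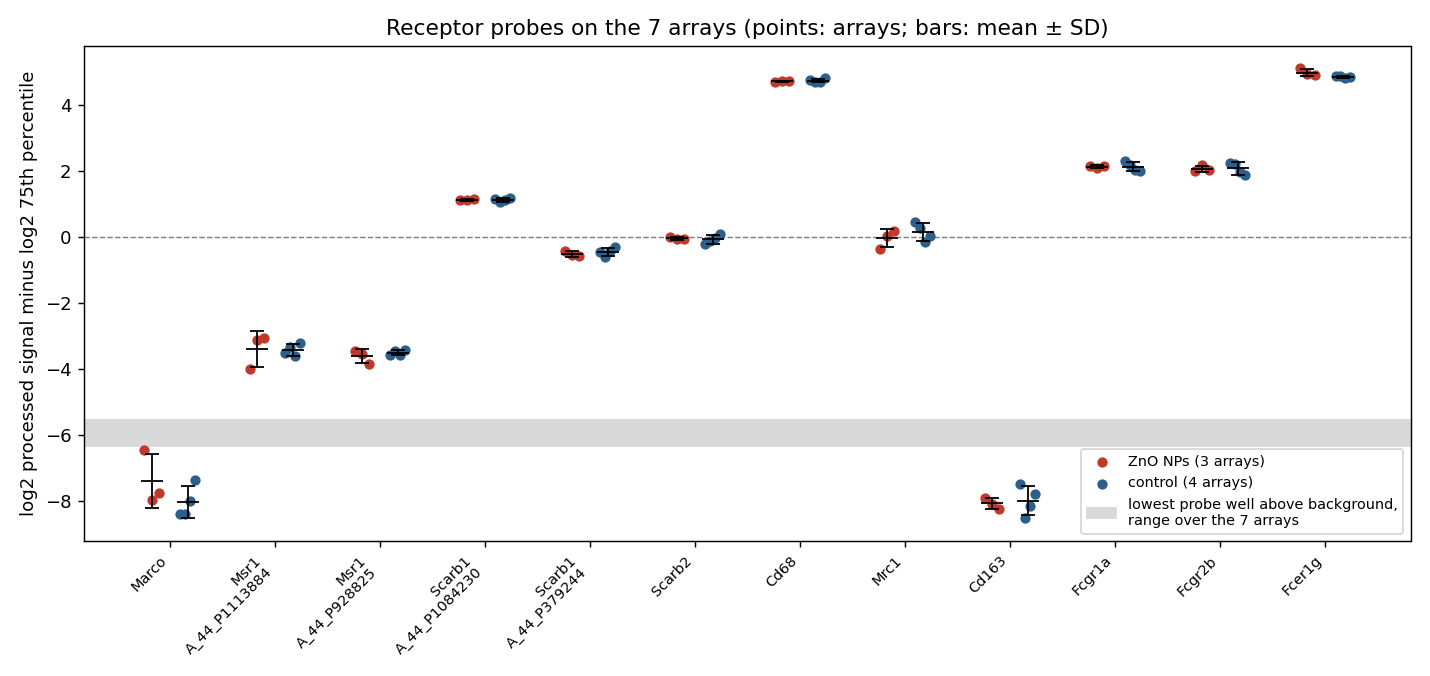
Level of each receptor probe (vertical axis, log2 processed signal minus the log2 75th percentile of the array) on the 3 ZnO NP arrays (red, left) and the 4 control arrays (blue, right), with the mean ± SD of each group. The grey band spans the lowest signals counted as well above background on the 7 arrays (-6.34 to -5.56), and all points of Marco and Cd163 lie below it. Levels of different probes are not comparable with each other.

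Marco, the collagenous receptor that binds unopsonised particles, was not well above background on any array. Its background-corrected intensity was 11.1, 5.25 and 7.40 on the ZnO arrays (replicates 1 to 3), against 3.89, 4.46, 4.61 and 5.85 on the control arrays (replicates 1 to 4). The lowest intensity that counted as well above background was between 18.8 and 24.6 on the ZnO arrays and between 16.7 and 20.3 on the control arrays. All 7 values were thus below what the array could measure, and no fold change or test is given. Marco was represented by 1 probe, printed above, and its position on rn4 is on the unplaced part of the assembly.

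Msr1, also called scavenger receptor A, was measured on all 7 arrays by both of its probes. With A_44_P928825 the levels were -3.45, -3.54 and -3.85 after ZnO and -3.59, -3.45, -3.56 and -3.44 in controls. The groups overlapped, with ZnO replicate 3 below every other array, and the log2 fold change was -0.10 (standard error 0.11, 95% interval -0.35 to 0.15, adjusted p = 0.976 from limma). With A_44_P1113884, designed on a predicted transcript, the levels were -4.01, -3.11 and -3.06 after ZnO and -3.53, -3.32, -3.62 and -3.21 in controls. Here ZnO replicate 1 was below all controls while the other ZnO replicates were above them. The log2 fold change was 0.02 (standard error 0.24, 95% interval -0.53 to 0.58, adjusted p = 0.999), and without ZnO replicate 1 it was 0.33 (adjusted p = 0.537), with the groups then not overlapping. The probes of Msr1 thus had opposite signs and placed the 3 ZnO replicates in different orders.

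Scarb1, the class B receptor for high-density lipoprotein, was among the most tightly measured receptors. With A_44_P1084230 its levels were 1.10, 1.12 and 1.14 after ZnO and 1.14, 1.05, 1.13 and 1.18 in controls. All ZnO values fell inside the control range. The log2 fold change was -0.00 (standard error 0.06), and its 95% interval of the fold ran from 0.899 to 1.11 (adjusted p = 0.999 from limma). With A_44_P379244, the probe that covers 2996 bases, the levels were -0.43, -0.54 and -0.58 after ZnO and -0.45, -0.60, -0.42 and -0.32 in controls. This gave a log2 fold change of -0.07 (standard error 0.09, 95% interval -0.27 to 0.14, adjusted p = 0.987), so the 2 probes of Scarb1 differed by less than their errors.

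Scarb2, a lysosomal membrane protein that carries beta-glucocerebrosidase to lysosomes, had levels of 0.00, -0.07 and -0.06 after ZnO. The control levels were -0.22, -0.12, -0.04 and 0.10 and enclosed the ZnO values. The log2 fold change was 0.03 (standard error 0.09, 95% interval -0.18 to 0.23, adjusted p = 0.999 from limma). Cd68, the endosomal sialomucin used as a macrophage marker, had 4.69, 4.73 and 4.73 after ZnO and 4.76, 4.70, 4.69 and 4.80 in controls. All ZnO values lay within the control range, and the groups differed by -0.02 log2 units (standard error 0.06, adjusted p = 0.999). The fold was 0.985, with a 95% interval of 0.888 to 1.09.

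Mrc1, the mannose receptor, had the lowest log2 fold change and the widest spread among controls of the 10 probes tested. Its levels were -0.35, 0.04 and 0.18 after ZnO and 0.46, 0.27, -0.16 and 0.02 in controls. ZnO replicate 1 was the lowest array and control replicate 1 the highest, and the remaining values were intermixed. This gave a log2 fold change of -0.19 with a standard error of 0.18 (limma, adjusted p = 0.970), and the fold had a 95% interval of 0.655 to 1.17. Leaving out ZnO replicate 1 brought it to -0.04 (adjusted p = 0.960), and leaving out control replicate 3 to -0.29 (adjusted p = 0.966). Cd163, the hemoglobin scavenger receptor, was well above background on none of the 7 arrays. Its intensity was 4.12, 4.75 and 5.35 after ZnO and 7.40, 4.04, 4.16 and 4.33 in controls, all below the lowest measurable signals given for Marco. No fold is given for Cd163, which had 1 probe.

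**Figure D2:**
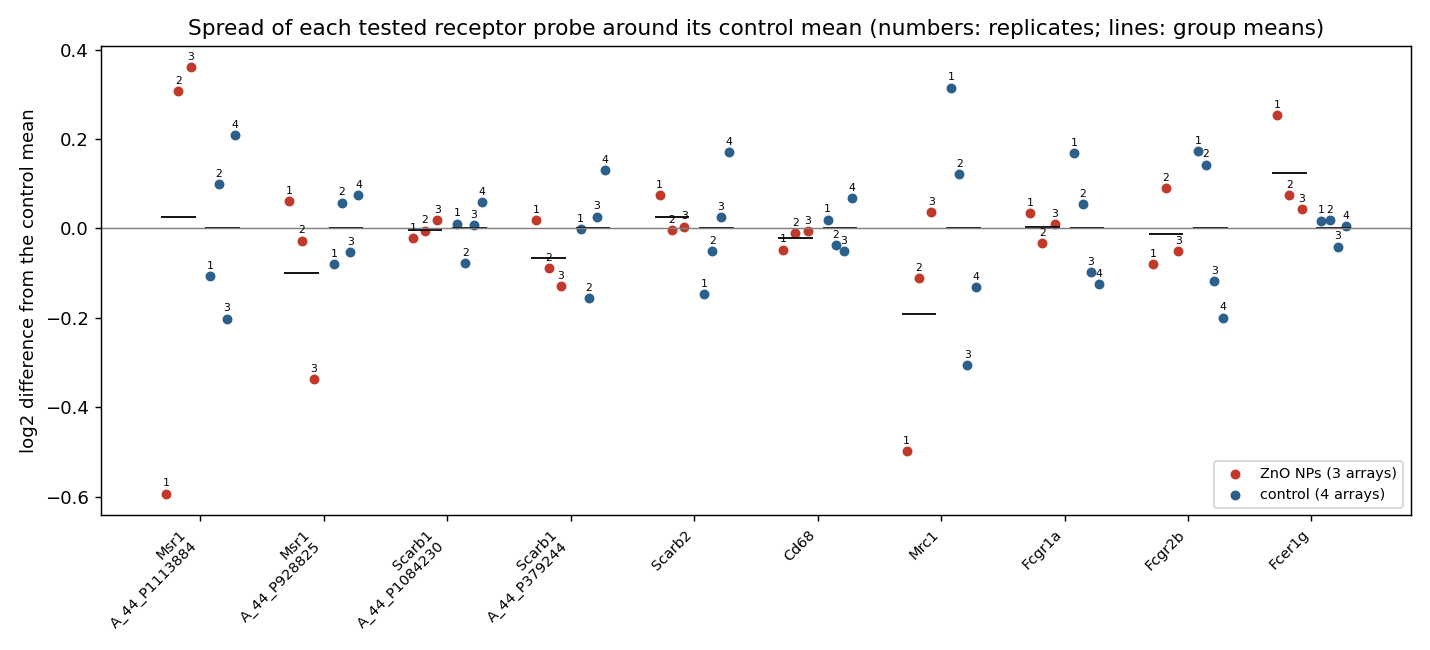
Difference of each array from the control mean of the same probe (vertical axis, log2 units) for the 10 receptor probes tested, ZnO NP arrays in red on the left and control arrays in blue on the right, with replicate numbers and with lines at the group means. Only for Fcer1g do all ZnO points lie above all control points, and the widest spreads are those of Msr1 (A_44_P1113884) and Mrc1.

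The activating IgG receptor Fcgr1a (CD64) had levels of 2.16, 2.10 and 2.14 after ZnO and 2.30, 2.18, 2.03 and 2.00 in controls. The ZnO values lay within the control range, the SD was 0.03 after ZnO and 0.14 in controls, and the log2 fold change was 0.00 (standard error 0.09, 95% interval -0.20 to 0.21, adjusted p = 0.999 from limma). Fcgr2b, the inhibitory IgG receptor, was spotted 10 times on each array. Its levels, each the mean of 10 spots, were 1.99, 2.16 and 2.02 after ZnO and 2.25, 2.22, 1.96 and 1.87 in controls. The log2 fold change was -0.01 (standard error 0.11, 95% interval -0.28 to 0.25, adjusted p = 0.999). Within an array the SD over the 10 spots was 0.11 to 0.13 after ZnO and 0.08 to 0.12 in controls, and the coefficient of variation of the spots was at most 9.32%. Between arrays the SD of the spot means was 0.09 after ZnO and 0.19 in controls. The SD within an array describes single spots and that between arrays describes means of 10 spots, so they are not like measures.

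Fcer1g, the gamma chain that carries the activation motif for Fcgr1a and other Fc receptors, was the only receptor whose groups did not overlap. Its levels, each the mean of 2 spots, were 5.10, 4.93 and 4.89 after ZnO and 4.87, 4.87, 4.81 and 4.86 in controls. The lowest ZnO array exceeded the highest control array by less than the SD of the ZnO group, 0.11. The log2 fold change was 0.12 (standard error 0.07, 95% interval -0.05 to 0.30, unadjusted p = 0.137, adjusted p = 0.915 from limma). Without ZnO replicate 1 it was 0.06. One of 10 receptor probes without overlap stands beside 7.38% of all probes tested (3.79% with ZnO higher), and with centring on the median or on the spike-in spots the count was 0.

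**Figure D3:**
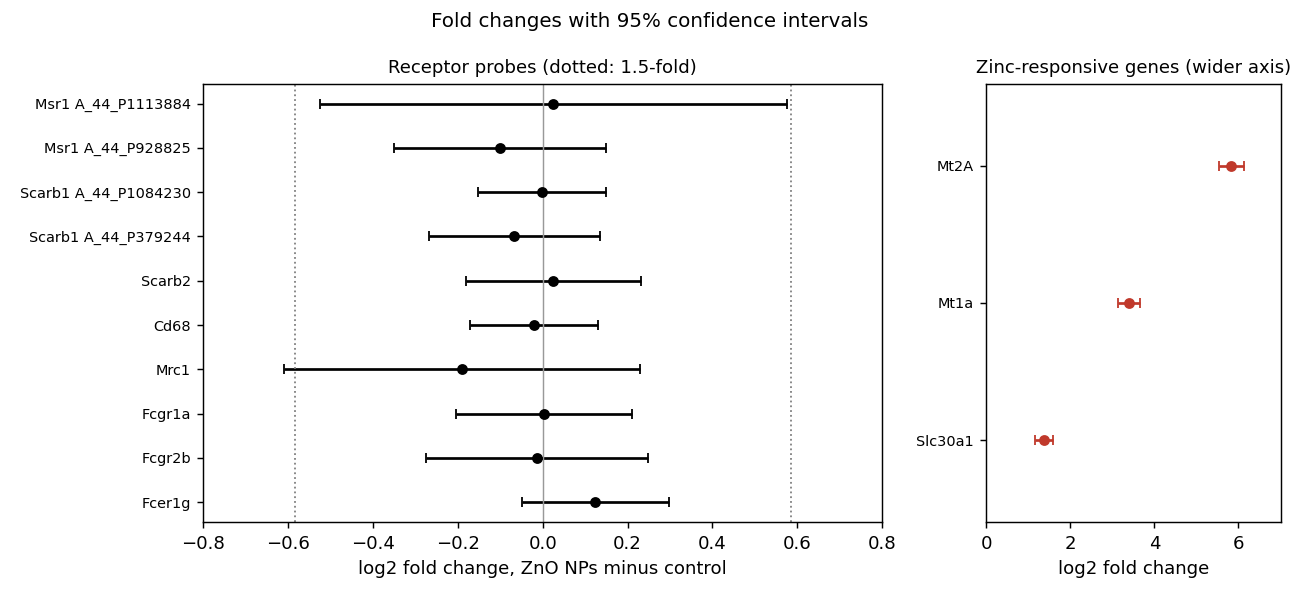
Log2 fold change (ZnO NPs minus control, horizontal axis) with its 95% interval from limma for the 10 receptor probes tested (left panel, dotted lines at 1.5-fold) and for Mt2A, Mt1a and Slc30a1 (right panel, on a wider axis). All 10 receptor intervals include 0, and only that of Mrc1 passes a dotted line, at -0.61.

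Several receptors differed among the control arrays in a shared pattern. Fcgr1a, Fcgr2b and Mrc1 were highest on control replicates 1 and 2 and lower on replicates 3 and 4, and Scarb2 was lowest on replicates 1 and 2 and highest on replicate 4. The array's 75th percentile was 1317 and 1489 on control replicates 1 and 2 and 1179 and 958 on replicates 3 and 4, and the quality report of Feature Extraction asked for evaluation of ZnO replicates 2 and 3 and of control replicates 3 and 4. Over all 7 arrays the Pearson r of the level with the log2 75th percentile was 0.43 for Fcgr1a, 0.63 for Fcgr2b, 0.67 for Mrc1 and -0.69 for Scarb2. For the receptors not picked by this pattern it was 0.54 for Msr1 (brighter probe), -0.39 for Scarb1 (brighter probe), -0.36 for Fcer1g and -0.23 for Cd68. The level has this percentile subtracted, and the control arrays that showed the pattern also enter r, so r is a description only. On ZnO replicates 1 to 3 the percentile was 980, 1304 and 1603, and Fcgr1a was at 2.16, 2.10 and 2.14. The part of signal strength in the control differences was not tested. With that quality status as a block, 0 of the 10 receptor probes passed limma's test.

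The genes whose levels were most like those of each receptor over the 7 arrays, among 9991 named genes measured on all arrays, were Ciao1 for Msr1 (Pearson r = 0.98), Nf2 for Scarb1 (0.99), Gps1 for Scarb2 (0.996), Hdgfl3 for Mrc1 (0.99), Erg28 for Cd68 (0.95), Mcm5 for Fcgr1a (0.97), Aida for Fcgr2b (0.97) and Pnldc1 for Fcer1g (0.96). These r values are the highest of 9991 each and rest on 7 arrays that share a slide, so they are given as a description. Msr1 and Scarb1 were taken by their brighter probes, A_44_P1113884 and A_44_P1084230. The other Msr1 probe placed the ZnO replicates in a different order, so the Msr1 values hold for that brighter probe only. Between 0.11% (Scarb1) and 1.56% (Msr1) of the candidate genes exceeded an r of 0.9 with a receptor. The log2 fold changes of these most similar genes ran from -0.15 (Hdgfl3) to 0.27 (Pnldc1, adjusted p = 0.798 from limma).

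Zinc switches on genes through the factor Mtf1, which binds metal response elements. The core of this element, TGCACNC or TGCGCNC, was counted on both strands of RefSeq promoters (GRCr8, 250 bases before to 50 after the start), where 24.2% of 33469 promoters held at least 1 copy. The promoters of Marco, Mrc1, Cd68 and Cd163 held 0 copies and that of Scarb2 held 1. The other 5 receptors had no promoter in the table. By the same count the promoters of Mt1a, Mt2A and Slc30a1 held 6, 4 and 2 copies. These are matches of letters and not sites of binding.

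Genes around the receptors in the same uptake pathways were described in the same way. In 7 lists with 119 genes in all, 88 genes were tested and 0 of them passed limma's test (0.0499% of all probes). At an unadjusted p under 0.05 there were 2 higher and 5 lower after ZnO (3.06% and 2.86% of all probes). For 1 gene with ZnO higher and 8 with ZnO lower the groups did not overlap (3.79% and 3.59% of all probes). Both counts of lower genes were larger shares of the 88 than those of all probes, and both counts of higher genes smaller shares. Whether these shares differ was not tested. The median log2 fold change of the 88 genes was -0.03, with 60 of 88 below 0, beside 52.1% of all probes. C3ar1 and Amph are among the 60, though neither is a measured fold. They passed the filter only through the control arrays, where they were higher, so the filter favoured their sign. Both also count in the medians of their lists.

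Other scavenger receptors (8 of 16 tested) had a median of 0.05 and 0 at an unadjusted p under 0.05. The lowest p among them was that of Ager, the receptor for advanced glycation end products, whose levels were -3.88, -4.40 and -4.11 after ZnO and -4.26, -4.41, -4.53 and -4.33 in controls (log2 fold change 0.25, adjusted p = 0.888 from limma). Lectin and adhesion receptors (13 of 17) had a median of -0.03. Trem1, which amplifies inflammatory signals, was nearest to the threshold there, at 0.62, 0.41 and 0.63 after ZnO and 0.75, 0.61, 0.72 and 0.78 in controls (log2 fold change -0.16, adjusted p = 0.886). Both genes overlapped between the groups. The other Fc receptors and FcRn (4 of 8) lay between -0.14 and -0.01, with the neonatal receptor Fcgrt, which recycles IgG, at -0.14 (adjusted p = 0.953).

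Of 23 tested genes of Fc receptor signalling (26 listed), 0 were higher and 1 was lower at an unadjusted p under 0.05, around a median of -0.01. This was Lcp2 (SLP-76), an adaptor of immunoreceptor signalling, at -3.17, -2.99 and -3.12 after ZnO and -2.61, -2.60, -2.90 and -2.87 in controls. All ZnO arrays were below all control arrays, with a log2 fold change of -0.35 (unadjusted p = 0.0107, adjusted p = 0.713 from limma). Complement receptors (7 of 8) had a median of -0.03 and none at that p. C3ar1, the receptor for the C3a fragment, had the lowest p of this list, at -5.62, -5.97 and -5.35 after ZnO and -5.02, -5.20, -5.60 and -4.99 in controls. Its groups overlapped, and it was well above background on 1 of the 3 ZnO arrays and on all 4 control arrays, so that its difference is not a measured fold and none is given.

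Receptors and bridging proteins for apoptotic cells (11 of 20 tested) had the lowest median of the lists, -0.14, with 10 of 11 below 0. Under 6 scalings of the arrays its median ran from -0.17 to -0.11, with 10 of 11 below 0 in each. The median of all probes ran from -0.044 to -0.0050. That of the engulfment machinery ran from -0.12 to -0.052, with 14 to 17 of 22 genes below 0. That of the other scavenger receptors ran from 0.017 to 0.062, with 2 to 4 of 8 below 0. The apoptotic cell list was picked for its low median, and the scalings reuse the same arrays. They show how far the median depends on scaling and are not repeated evidence of a fall. Of the 11 genes, 0 passed the adjusted test, and 2 genes were lower and 1 gene higher at an unadjusted p under 0.05. Axl, a receptor tyrosine kinase that binds Gas6 on dying cells, was at -1.84, -1.68 and -1.71 after ZnO and -1.39, -1.53, -1.39 and -1.42 in controls (log2 fold change -0.31, standard error 0.07, unadjusted p = 0.00351, adjusted p = 0.545 from limma). Cd47, the signal against engulfment, was at 2.61, 2.59 and 2.57 after ZnO and 2.79, 2.73, 2.89 and 2.71 in controls (log2 fold change -0.19, adjusted p = 0.808). For both genes every ZnO array was below every control array. Adgrb1 (BAI1), a receptor for phosphatidylserine, ran the other way, at -3.75, -3.97 and -4.30 after ZnO and -4.37, -4.42, -4.78 and -4.78 in controls (log2 fold change 0.58, standard error 0.16, adjusted p = 0.682).

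The engulfment machinery, the GTPases, actin regulators and vesicle proteins that close the phagosome, had 22 of 24 genes tested and a median of -0.09. This median includes Amph, which was well above background on 2 of the 3 ZnO arrays. Of the 22 genes tested, 1 gene was higher and 2 genes were lower at an unadjusted p under 0.05. Coro1a, an actin-binding protein of phagosomes, was at 2.13, 2.54 and 2.76 after ZnO and 1.77, 2.12, 1.54 and 2.29 in controls, with overlapping groups (log2 fold change 0.55, standard error 0.22, adjusted p = 0.822 from limma). Arpc4, a subunit of the Arp2/3 complex, was at -0.10, 0.05 and 0.10 after ZnO and 0.10, 0.27, 0.22 and 0.33 in controls (log2 fold change -0.22, adjusted p = 0.822), and its groups did not overlap. Was, which activates that complex in blood cells, was at -3.88, -4.06 and -4.04 after ZnO and -3.65, -3.92, -3.59 and -3.86 in controls (log2 fold change -0.24, adjusted p = 0.835).

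**Figure D4:**
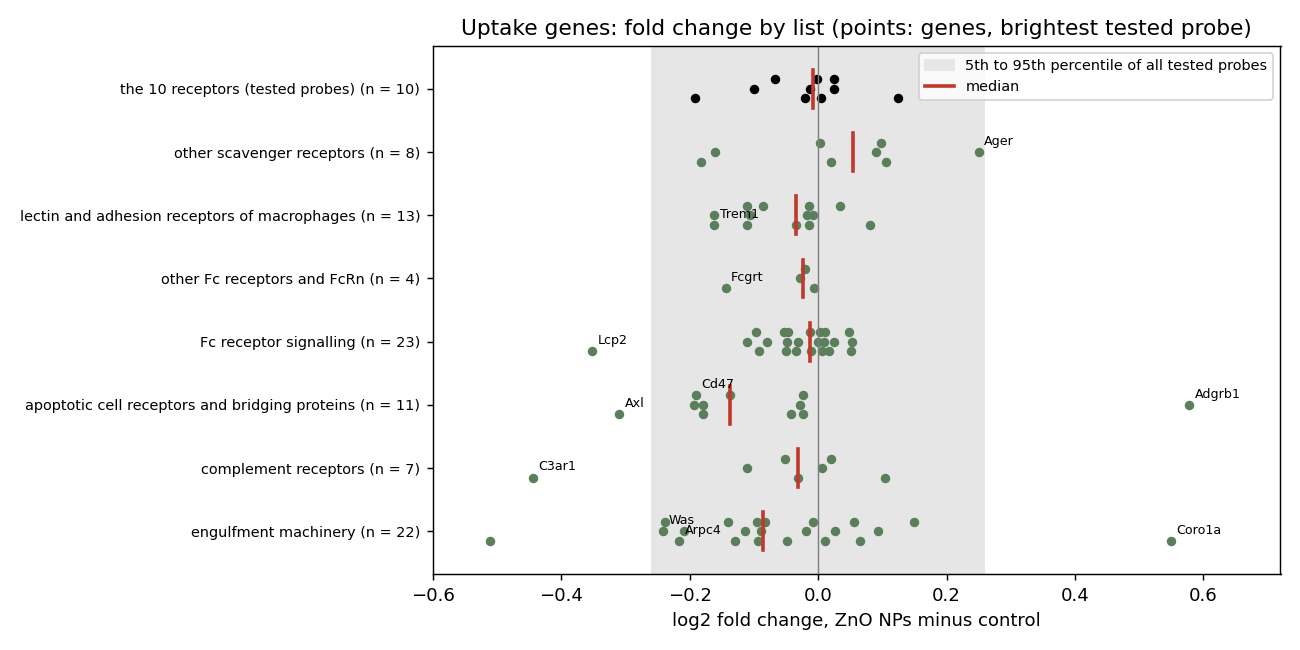
Log2 fold change (ZnO NPs minus control, horizontal axis) of the 10 receptor probes tested and of the 88 tested genes in 7 uptake lists (rows), with red lines at the medians and a grey band from the 5th to the 95th percentile of all 20037 probes (-0.26 to 0.26). All receptor probes lie inside the band, and Lcp2, Axl, Adgrb1 and Coro1a are among the points outside it. The point of C3ar1 and the lowest of the engulfment machinery (Amph) are not measured folds, since only 1 and 2 of the 3 ZnO arrays were well above background for them.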

How the data were processed

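Cy3-labelled RNA of 7 cultures (3 ZnO NPs, 4 control) was hybridised to one-color Agilent rat arrays. The authors scanned them and used Feature Extraction 11.0.1.1 (per the labels), and the deposited files hold the spot intensity after background subtraction, with no normalization between arrays; the study names percentile normalization but neither the percentile nor the test. Every one of the 440832 values of the deposited table equals the median spot intensity of the array files.

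Intensities of the 58717 non-control spots were put on a log2 scale relative to their array's 75th percentile, and unflagged spots of a probe were averaged. A probe entered the test when every array of either group had it well above background (limma 3.58.1, lmFit and eBayes, R 4.3.3; Benjamini-Hochberg over all 20037 probes), and a change was called at an adjusted p under 0.05. Each listed gene took its brightest tested probe. Names came from the current annotation for 21109 probes by accession and 7115 by symbol, and 17374 kept the name of the design. The members and lists were chosen with earlier results of these data known. Genes of a list are named when at an unadjusted p under 0.05 (at most 3), or otherwise the 1 with the lowest p; 1 gene most similar over the arrays is named for each receptor. The fit was also run on simulated data with known changes. Its outcome is not given here and is not used as support. Alternatives covered other scalings, background correction, filters, variance models, blocks and the omission of each array. Python 3.11.15, pandas 2.3.3, numpy 2.4.6, matplotlib 3.10.9 and version 1.17.8 of data.table were used.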

Additional observations from a re-analysis of the deposited data

How the results depend on the processing

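Under the 20 alternatives that refit single probes, 0 receptor probes passed limma's test, and their adjusted p was at least 0.50. No listed gene passed under any of the 21 alternatives. The signs of Scarb1 A_44_P379244, Mrc1 and Fcer1g held throughout, while log2 fold changes close to 0 crossed it, as follows. Quantile normalization gave -0.018 for Fcgr1a. Centring on the median gave -0.013 for Msr1 A_44_P1113884, -0.012 for Scarb2 and -0.033 for Fcgr1a. Normexp gave 0.0061 for Scarb1 A_44_P1084230, -0.0050 for Scarb2 and 0.0032 for Cd68. The deposited table gave 0.0067 for Msr1 A_44_P928825, 0.00068 for Scarb1 A_44_P1084230 and 0.0029 for Cd68. Array weights gave 0.015 for Scarb1 A_44_P1084230 and -0.063 for Fcgr1a. The array's row on the slide as a block, chosen after seeing the data, gave -0.011 for Msr1 A_44_P1113884, 0.0013 for Scarb1 A_44_P1084230, -0.024 for Scarb2 and 0.044 for Fcgr2b. Control replicate 1 was alone in its row, so these fold changes equal those with that array left out and are not a separate check. Quality status as a block, also chosen after seeing the data, gave -0.038 for Msr1 A_44_P1113884 and 0.012 for Fcgr2b. With 1 array left out at a time, values ran from -0.14 to 0.33 for Msr1 A_44_P1113884, -0.18 to 0.017 for Msr1 A_44_P928825, -0.028 to 0.017 for Scarb1 A_44_P1084230, -0.12 to -0.023 for Scarb1 A_44_P379244, -0.30 to -0.038 for Mrc1, 0.059 to 0.16 for Fcer1g, -0.024 to 0.082 for Scarb2, -0.038 to 0.0015 for Cd68, -0.038 to 0.060 for Fcgr1a and -0.080 to 0.044 for Fcgr2b. The count of receptor probes without overlap was 0 with centring on the median or on the 350 spike-in spots, and 1 to 2 with 1 array left out (2 without ZnO replicate 1).

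Over all probes, calls at an adjusted p under 0.05 numbered 5 with spike-in centring, 5 with no filter on dim probes, 1 with slide row as a block, and 7 to 8 with 1 array left out. They numbered 14 with a trended and robust variance (10 higher, 4 lower) and 15 with array weights (11 higher, 4 lower), and 1 probe was lower with quantile normalization and with centring on the median. Calls with a fold over 1.5 and an adjusted p under 0.001, the thresholds of the study, numbered 4 in the reported fit, 1 with no filter on dim probes, 0 with slide row as a block, and 2 to 4 with 1 array left out (2 without control replicate 1, control replicate 4 or ZnO replicate 3). The cause was not tested. Samples share only a replicate number: same-numbered deviations correlated at -0.14, 0.26 and -0.31. A replicate block gave 4 calls over all probes (0 at the study's thresholds), and 0.017 for Scarb1 A_44_P1084230, 0.0015 for Cd68 and -0.038 for Fcgr1a, with 0 receptor probes called. Control replicate 4 has no ZnO array of its number, so these fold changes equal those with that array left out. Dim probes limit what can be said of Marco and Cd163, which gave a bound and no level. That bound is on the signal of 1 probe for each gene. A transcript that is absent and a probe that does not detect it cannot be told apart here.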
